A study of Danio rerio with 9 samples.

Results

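Whole zebrafish embryos at the Pec-fin stage (60 hours post-fertilization, hpf) were set against embryos at the Long-pec stage (48 hpf), a step of 12 hours, for all genes with at least 1 RPKM in either library. RPKM is a read count scaled by the length of the gene and by the mapped reads of the library. Of 29291 genes in the table, 14216 met this rule. Both stages were embryos of the AB strain with no further treatment or mutation named, and both came from a series of 9 stages that follows development from cleavage to larva. Each library was made from poly(A) RNA pooled from about 2000 individuals. There was 1 library per stage, so no replicate spread exists, no p-value is given, and every statement describes these libraries.

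The Pec-fin values resolved into the mean of 2 runs with 171010360 and 59857652 mapped reads. The Long-pec values resolved into 1 run with 190343959. The labels name no such runs, which were inferred from the values alone. A gene of the median length, 2144.5 bases, had 367 and 128 reads per RPKM in the Pec-fin runs and 408 at Long-pec. Between the Pec-fin runs, 11471 genes with at least 200 reads over both runs differed with a standard deviation (SD) of 0.073 on the log2 scale. Of these genes, 0 differed by 2-fold. This measures the runs and not the embryos, and it leaves out genes with few reads. In whole embryos, fewer cells of a type and less RNA per cell cannot be told apart.

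Both stages are named for the pectoral fin, which grows out as a bud and then forms a flat blade. Around the same time zebrafish embryos leave the egg envelope with the help of enzymes from the hatching gland. Their trunk muscle is already contracting, lens fiber cells fill with crystallins, and the retina forms its layers while photoreceptors begin to differentiate.

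Differences are given as log2(RPKM + 1) at Pec-fin minus Long-pec, so a positive value means a higher level at Pec-fin, and the added 1 shrinks the differences of low genes. A difference of 1 either way is called 2-fold. At this size 156 genes (1.1% of 14216) were higher at Pec-fin and 143 (1.01%) were lower, together 2.1%. In a short list, a count of 0 past 2-fold is near this share. The median gene differed by -0.06, 89.7% of genes stayed within 1.5-fold, and 42.9% had a positive difference. At 4-fold, 14 genes were higher and 16 lower. Of the 143 lower genes, 85 were under 1 RPKM at Pec-fin, and of the 156 higher genes 28 were under 1 RPKM at Long-pec. Among the named genes past 2-fold, those of fast muscle and lens and most of retina were higher. Those of the lists for hatching gland, liver and plasma proteins, exocrine pancreas and gonad were lower. Named genes short of 2-fold went both ways in several of these tissues.

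**Figure D1:**
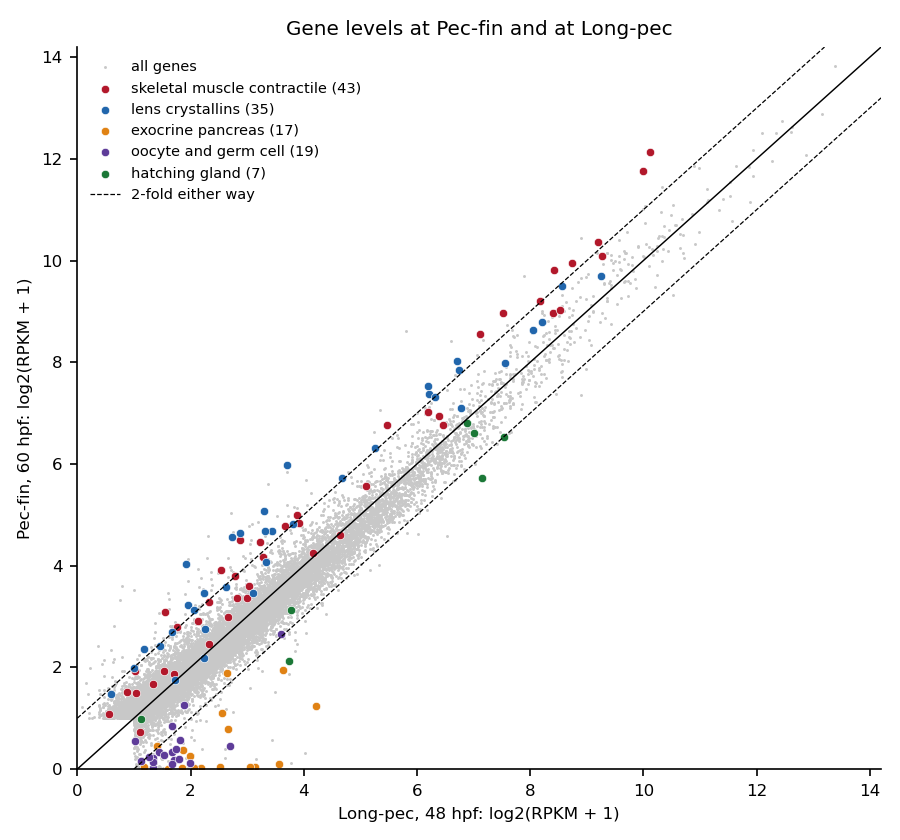
Each point is 1 gene, with log2(RPKM + 1) at Pec-fin (60 hpf) on the vertical axis and at Long-pec (48 hpf) on the horizontal axis; dashed lines mark 2-fold and colours mark the measured members of 5 gene lists. Muscle and crystallin genes lie above the diagonal, at high as well as at low levels, while exocrine pancreas and oocyte genes lie along the bottom, below 1 RPKM at Pec-fin in all but a few cases.

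Skeletal muscle genes were higher at Pec-fin. Of 43 measured genes of the contractile apparatus and its calcium handling, 17 passed 2-fold on the higher side and 0 on the lower side. Their median difference was 0.83, against -0.06 over all genes, and 41 of the 43 differences were positive, against 42.9% of all genes. The summed level over all 47 matched members was 15536 RPKM at Pec-fin and 5897 RPKM at Long-pec.

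Parvalbumins, the calcium buffers that speed relaxation of fast fibers, included the largest differences in this list. pvalb1 had 4482 RPKM at Pec-fin and 1103 RPKM at Long-pec, a difference of 2.02. The Pec-fin runs gave 4549 and 4415 RPKM for it, and the exact 95% Poisson interval at Long-pec was 1098 to 1109 RPKM. Such intervals cover counting error only. pvalb2 had 3461 RPKM at Pec-fin and 1021 RPKM at Long-pec (1.76), and pvalb4 had 374 and 138 RPKM in the same order (1.43). Not all parvalbumins were higher. pvalb9 had 144 RPKM at Pec-fin and 205 RPKM at Long-pec (-0.51), pvalb8 had 38.4 and 66.5 RPKM (-0.78), and PVALB (ENSDARG00000009311) had 1.64 and 4.09 RPKM (-0.95).

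Among the motor proteins, the fast myosin heavy chain genes myhz1.1 and myhz1.2 differed by 1.64 and 1.54. myhz1.1 had 21.7 RPKM at Pec-fin and 6.32 RPKM at Long-pec, and myhz1.2 had 7.46 and 1.92 RPKM. myhz2, of the same family, had 12.9 RPKM at Pec-fin and 5.92 RPKM at Long-pec, a difference of 1.01. Reads of these heavy chain genes may be shared, since the copies lie close in sequence, and how shared reads were counted is not given in the sources used here.

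Myosin light chains and thin filament regulators varied by gene copy. MYL11, the fast skeletal regulatory light chain, is the symbol of 2 gene IDs and was picked after its values were seen. ENSDARG00000002589 had 829.7 RPKM at Pec-fin and 238 RPKM at Long-pec (1.80), and the more abundant ENSDARG00000053254 had 3734 and 1892 RPKM (0.98). TNNT3, fast troponin T, had 499 RPKM at Pec-fin and 184 RPKM at Long-pec for ENSDARG00000068457 (1.44). Fast troponin C, TNNC2, had 1083 RPKM at Pec-fin and 613 RPKM at Long-pec (0.82), short of 2-fold.

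The copies of troponin I differed among themselves. The symbol TNNI2, chosen after values were seen, stands for 6 gene IDs. ENSDARG00000029069 had 1395 RPKM at Pec-fin and 478 RPKM at Long-pec (1.54), and ENSDARG00000029995 had 16.4 and 2.90 RPKM (2.16). ENSDARG00000035958 had 85.2 RPKM at Pec-fin and 89.5 RPKM at Long-pec (-0.07). The other 3 copies were under 1 RPKM in both libraries.

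Enzymes that feed contraction were higher as well. Of 19 measured genes of muscle energy and nucleotide metabolism 4 passed 2-fold, all higher at Pec-fin, and the list median was 0.80. AMPD1, the muscle AMP deaminase, had the largest positive difference of the 14216 genes, with 11.2 RPKM at Pec-fin and 0.721 RPKM at Long-pec (2.82). AMPD1 met the 1 RPKM limit only through Pec-fin. The oxygen store myoglobin, mb, had 11.0 RPKM at Pec-fin and 3.43 RPKM at Long-pec (1.44). PFKM (ENSDARG00000060797), muscle phosphofructokinase, had 11.3 and 4.21 RPKM (1.24). SLC25A4, the mitochondrial ADP/ATP carrier, had 213 and 101 RPKM (1.07). The creatine kinase gene ckma had 1348 RPKM at Pec-fin and 758 RPKM at Long-pec (0.83).

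The transcription factors that set up muscle had a lower median. Of 12 measured myogenic regulators 0 were 2-fold higher or lower, near the share over all genes, with a median of 0.12. MYOG, myogenin, was the farthest of them, at 9.17 RPKM at Pec-fin and 5.24 RPKM at Long-pec (0.71), while MYOD1 had 10.7 and 8.56 RPKM (0.29). Of 12 measured heart genes 0 passed 2-fold, also near that share, with a median of 0.13. The cardiac light chain MYL7 had 17.8 RPKM at Pec-fin and 16.3 RPKM at Long-pec (0.12), and the cardiac actin gene actc1a had 6.31 and 12.9 RPKM (-0.93).

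Over 4 stages, the muscle list was low at Long-pec. The median level of its 43 measured members was 21.1 RPKM at Prim-25 (36 hpf), 8.77 at Long-pec, 21.1 at Pec-fin and 16.2 at Protruding-mouth (72 hpf). The sum over all 47 matched members was 7333, 5897, 15536 and 12920 RPKM at these stages, so by the sum Pec-fin stood above Prim-25. Up to Pec-fin myhz1.1 followed the course of the median, with 16.6, 6.32, 21.7 and 23.1 RPKM. pvalb1 had 1155, 1103, 4482 and 3868 RPKM, and AMPD1 had 0.375, 0.721, 11.2 and 45.0 RPKM. For myhz1.1 the Pec-fin level was therefore somewhat above that at Prim-25, whereas for pvalb1 and AMPD1 it was far above both earlier stages.

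**Figure D2:**
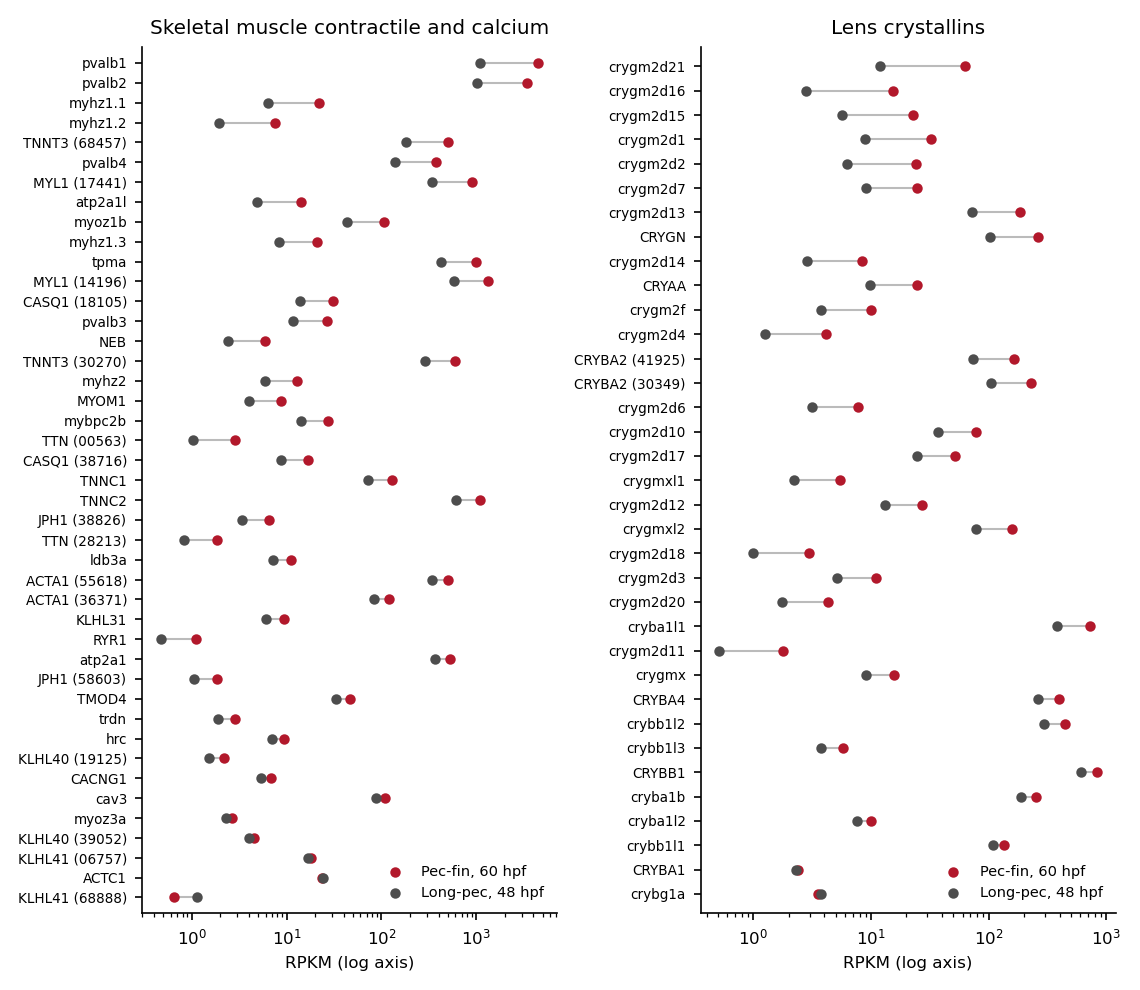
RPKM on a log axis at Pec-fin (red) and Long-pec (grey) for the 43 measured skeletal muscle genes (left panel) and the 35 measured crystallin genes (right panel), ordered by difference; the last 5 digits of the gene ID follow a symbol that occurs more than once. The red point lies right of the grey one in 41 of 43 muscle genes and 34 of 35 crystallin genes.

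In the eye, the crystallins, which pack lens fiber cells and give the lens its refractive power, were higher at Pec-fin across nearly all classes. Of 35 measured genes (52 matched), 20 passed 2-fold, all of them higher at Pec-fin, and the median was 1.01 (0.67 over all 52). The gamma M2d class, small aquatic lens crystallins with many copies, held 13 of the 20. Its 17 measured members had a median of 1.18, and their smallest difference was 0.87. Its summed level was 565 RPKM at Pec-fin and 208 RPKM at Long-pec.

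Within that class crygm2d21 had 62.4 RPKM at Pec-fin and 11.97 RPKM at Long-pec (2.29). crygm2d16 had 15.4 RPKM at Pec-fin and 2.79 RPKM at Long-pec (2.11), and crygm2d15 had 22.8 and 5.62 RPKM (1.85). These copies resemble each other closely, so the level of any one of them is uncertain where reads could be assigned to several.

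The beta classes were more abundant and differed less. The 7 measured beta A genes summed to 1780.4 RPKM at Pec-fin and 1017 RPKM at Long-pec, with a median difference of 0.59 and 2 genes past 2-fold. The 4 measured beta B genes had a median of 0.48 and 0 past 2-fold. CRYBB1, the most abundant crystallin in both libraries, had 831 RPKM at Pec-fin and 606 RPKM at Long-pec (0.45). The lens chaperone alpha A crystallin, CRYAA, had 24.7 RPKM at Pec-fin and 9.88 RPKM at Long-pec (1.24).

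Other lens genes gave a median that depended on how members were matched. Of 17 measured genes of lens fiber structure and regulation 2 passed 2-fold, both higher at Pec-fin, around a median of 0.10. With members matched by exact symbol only, that median was 0.66. BFSP2, a filament protein of lens fibers, had 14.4 RPKM at Pec-fin and 4.73 RPKM at Long-pec (1.43). LGSN, lengsin, a late lens fiber protein, had 2.56 and 0.384 RPKM (1.36). It was 1 of 2 members that met the 1 RPKM limit only through Pec-fin. The lens transcription factor genes foxe3 (1.70 RPKM at Pec-fin and 2.02 RPKM at Long-pec) and pitx3 (6.31 and 6.80 RPKM) had differences of -0.16 and -0.09.

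In the retina, genes for regulators of photoreceptors and bipolar cells were higher at Pec-fin. VSX1, a homeodomain factor of bipolar cells, had 24.4 RPKM at Pec-fin and 5.77 RPKM at Long-pec (1.91). The cone-rod homeobox gene crx had 16.7 RPKM at Pec-fin and 3.89 RPKM at Long-pec, and a second gene with that symbol, CRX, had 9.99 and 2.04 RPKM, both with a difference of 1.86. NR2E3, a nuclear receptor of photoreceptors, had 3.94 RPKM at Pec-fin and 1.45 RPKM at Long-pec (1.01). six7, a factor of zebrafish cones, had 1.95 and 0.388 RPKM (1.09).

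These genes came from lists whose other members were mixed. Of 21 measured genes of retinal progenitors and neurons 4 passed 2-fold upward and 0 downward (median 0.21). The 4 were VSX1, six7, crx and CRX, and crx and CRX were also members of the photoreceptor list. six7 met the 1 RPKM limit only through Pec-fin. Among the members below 0, the progenitor factor rx1 had 6.05 RPKM at Pec-fin and 9.75 RPKM at Long-pec (-0.61). POU4F2, a factor of retinal ganglion cells, had 4.32 RPKM at Pec-fin and 1.70 RPKM at Long-pec (0.98). RORB, a nuclear receptor of the retina that was in the list of clock genes, had 6.35 and 1.596 RPKM. SAMD7, a regulator expressed in photoreceptors, and pax10, a relative of PAX6, were picked after their values were seen. SAMD7 had 3.64 RPKM at Pec-fin and 0.723 RPKM at Long-pec (1.43), and pax10 had 3.43 and 0.385 RPKM (1.68).

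Photoreceptor and phototransduction genes were mostly low in both libraries, with a median level of 2.48 RPKM at Pec-fin and 2.32 RPKM at Long-pec. Of these 19 measured genes 4 passed 2-fold upward and 1 downward (median difference 0.11). The 4 were GNB3 and the regulators crx, CRX and NR2E3 given above. Of the 19, 3 met the 1 RPKM limit only through Pec-fin, GNB3 included, and 2 only through Long-pec. Over all 52 matched genes the median was -0.01. The red cone opsin opn1lw2 had 1.17 RPKM at Pec-fin and 1.93 RPKM at Long-pec (-0.43). GNB3, the cone transducin beta subunit, had 2.33 RPKM at Pec-fin and 0.582 RPKM at Long-pec (1.08). At Protruding-mouth opn1lw2 stood at 108 RPKM.

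**Figure D3:**
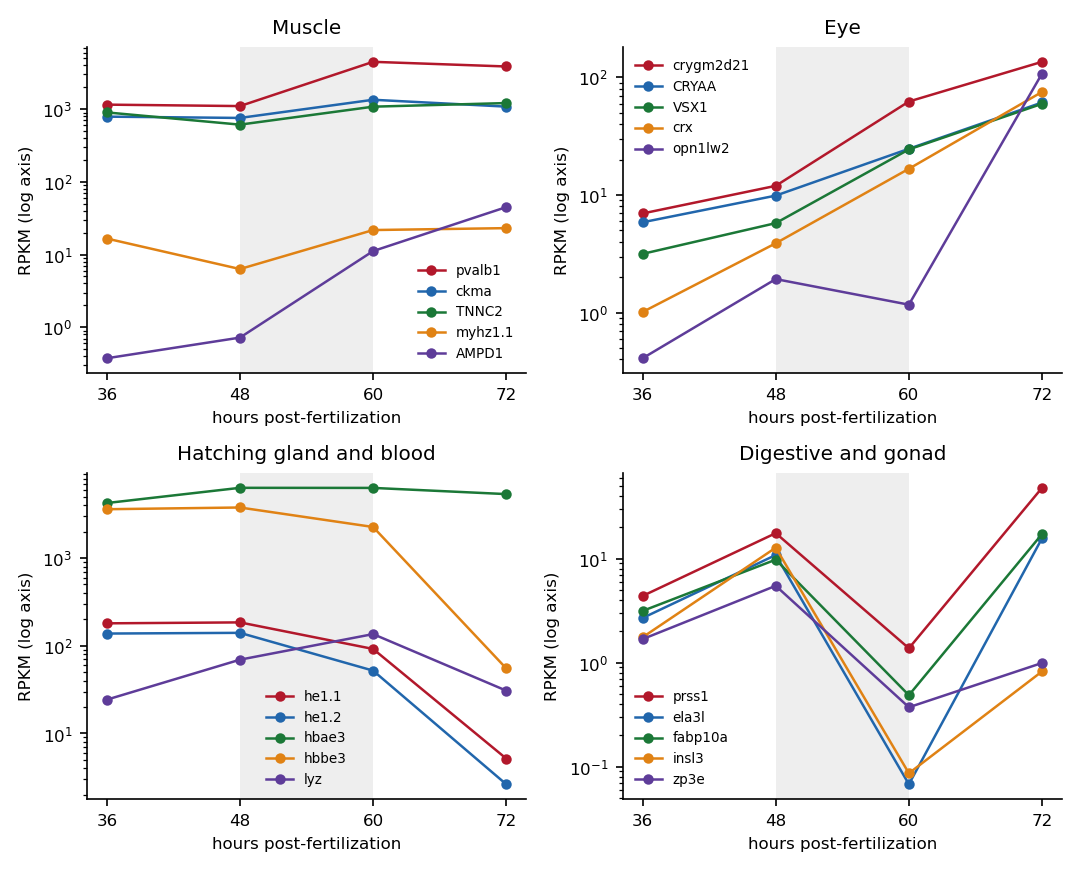
RPKM on a log axis at 36 (Prim-25), 48 (Long-pec), 60 (Pec-fin) and 72 (Protruding-mouth) hpf for 20 genes in 4 panels, 1 library per point; the shaded span is the step described here. The lens genes, VSX1 and crx climb at every stage, whereas opn1lw2 dips at 60 hpf. Muscle genes step up inside the shaded span, hatching enzymes decline through it and the digestive and gonad genes have their lowest point at 60 hpf.

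In the nervous system, differences were small. Of 36 measured synaptic and mature neuron genes 32 had a positive difference, against 42.9% of all genes, but 0 reached 2-fold (median 0.34). GRIA2, an AMPA receptor subunit, had 2.67 RPKM at Pec-fin and 1.27 RPKM at Long-pec for ENSDARG00000070173 (0.70). GAD2, a GABA-synthesizing enzyme, had 4.17 and 2.33 RPKM (0.63). The synaptic vesicle gene vamp2 had 12.9 RPKM at Pec-fin and 8.32 RPKM at Long-pec (0.58).

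Of 32 measured neural progenitor and neurogenesis genes 10 had a positive difference, against 42.9% of all genes, and 0 reached 2-fold (median -0.22). SOX3, a factor of neural progenitors, had 82.9 RPKM at Pec-fin and 149 RPKM at Long-pec (-0.84), and sox19a had 74.1 and 118 RPKM (-0.66). INSM1, a zinc finger factor of newborn neurons, had 33.0 RPKM at Pec-fin and 62.6 RPKM at Long-pec (-0.90). Outside this list OLIG3, a factor of the dorsal hindbrain and spinal cord, passed 2-fold with 5.49 and 13.5 RPKM (-1.16), as did otx2a, of the forebrain and midbrain, with 7.95 and 17.9 RPKM (-1.08). FABP7, a lipid carrier of radial glia, lay above 0, with 705 RPKM at Pec-fin and 428 RPKM at Long-pec for ENSDARG00000007697 (0.72).

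Of 23 measured clock genes 2 passed 2-fold, RORB and cry3a, both higher, and the median was -0.02, which turns positive under median-of-ratios scaling, which sets the median gene ratio between libraries to 1. cry3a, a cryptochrome, had 35.8 RPKM at Pec-fin and 11.98 RPKM at Long-pec (1.502). The clock output factor tefa had 11.4 and 22.5 RPKM (-0.92), and PER1 (ENSDARG00000012499) had 0.710 and 1.86 RPKM (-0.74). The labels used here give no hour of the day or light cycle, so the time of collection could not be set beside these values.

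By count and median, genes of the pectoral fin were near all genes across a step named for that fin. Of 33 measured fin bud patterning genes 0 passed 2-fold, where 2.1% of all genes did. Their median was -0.08, against -0.06 over all genes. ETV4, a target of fibroblast growth factor signaling, had 9.80 RPKM at Pec-fin and 18.8 RPKM at Long-pec (-0.88). The posterior fin gene hoxd13a had 1.62 and 1.01 RPKM (0.38). The early limb field factor TBX5 was under 1 RPKM in both libraries, at 0.389 RPKM at Pec-fin and 0.381 RPKM at Long-pec. Of 38 measured hox genes 0 passed 2-fold (median 0.02), also near the share over all genes.

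Of 10 measured genes of the fin fold, 0 passed 2-fold, where 2.1% of all genes did. The actinodins build the stiff fibrils of larval fins. and1 had 105 RPKM at Pec-fin and 165 RPKM at Long-pec (-0.65), whereas and2 (96.9 and 101 RPKM, -0.06, turning positive under median-of-ratios scaling) and and3 (50.3 and 53.8 RPKM, -0.09) were nearly level.

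Skeletal genes lay on the higher side. Of 23 measured cartilage and bone genes 21 had a positive difference, against 42.9% of all genes, and 3 passed 2-fold (median 0.28). COL10A1, a collagen of bone-forming and hypertrophic cartilage cells, had 3.50 RPKM at Pec-fin and 0.570 RPKM at Long-pec (1.52). COL10A1 met the 1 RPKM limit only through Pec-fin. UCMA, a matrix protein of cartilage, had 20.7 and 9.17 RPKM (1.09). MATN3 (ENSDARG00000069245), a cartilage matrilin, had 16.6 and 7.42 RPKM (1.07). The cartilage regulator SOX9 (ENSDARG00000043923) had 20.5 RPKM at Pec-fin and 28.4 RPKM at Long-pec (-0.45), and MATN1, another matrilin, was below 1 RPKM in both, at 0.235 and 0.763 RPKM. Of 38 measured collagens 2 passed 2-fold upward, where 1.1% of all genes did, and 5 met the 1 RPKM limit only through Pec-fin. The 2 were COL10A1 and the epithelial anchoring collagen col17a1a, which had 4.97 RPKM at Pec-fin and 1.85 RPKM at Long-pec (1.07).

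**Figure D4:**
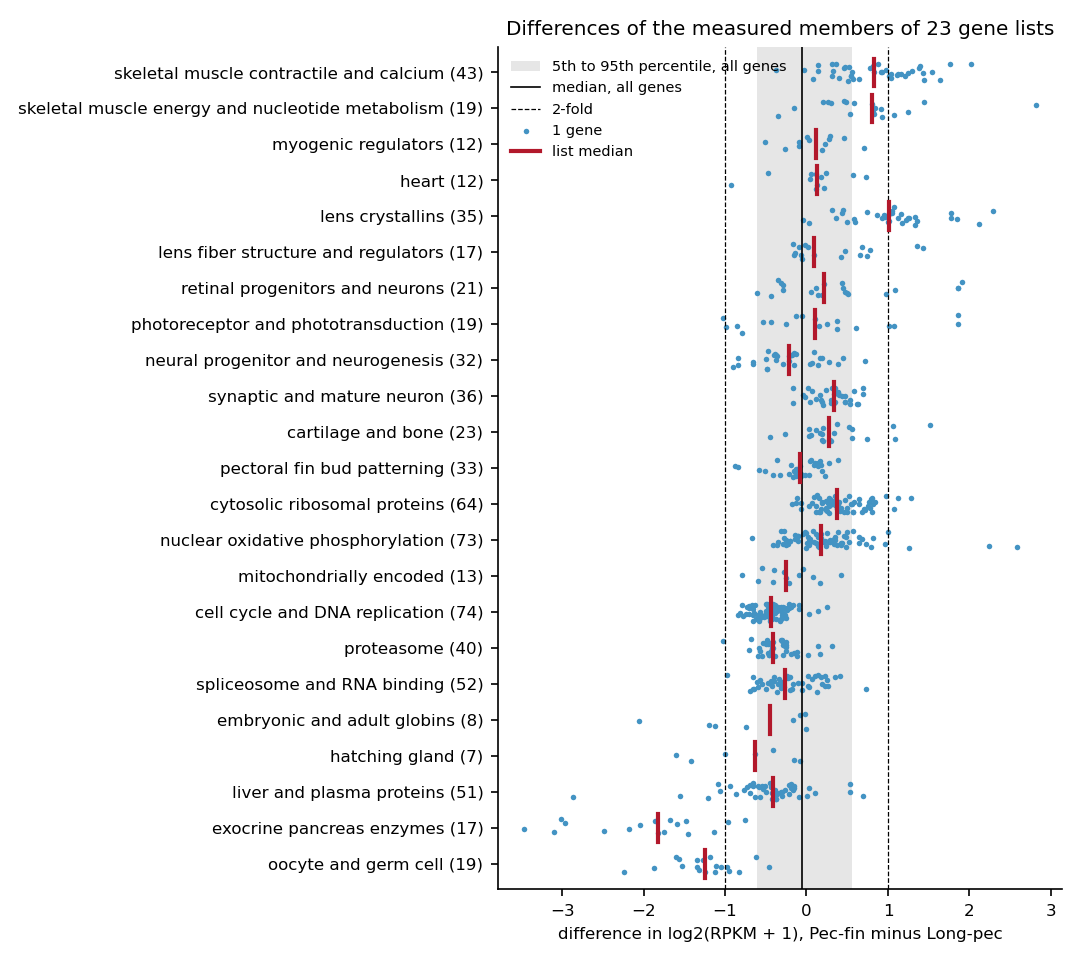
Differences in log2(RPKM + 1), Pec-fin minus Long-pec, of every measured member of 23 gene lists, with the number of members in brackets; red bars are list medians, the grey band holds the middle 90% of all 14216 genes and dashed lines mark 2-fold. The band is the spread of single genes and not of medians. The muscle and crystallin medians are 0.80 to 1.01, and the cell cycle and proteasome medians are -0.44 and -0.41.

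Genes of translation differed by small amounts and not in a common direction. Of 64 measured cytosolic ribosomal protein genes 59 were positive, against 42.9% of all genes, with a median of 0.37. Of the 64, 3 passed 2-fold, where 2.1% of all genes did. RPL22 had 347 RPKM at Pec-fin and 142 RPKM at Long-pec (1.28), rps20 had 2804 and 1288 RPKM (1.12), and RPS24 had 281 and 133 RPKM (1.07). Over all 65 matched genes the summed level was 49497, 59601, 77021 and 40877 RPKM from Prim-25 to Protruding-mouth. The list was not uniform, since RPLP0, of the ribosomal stalk, had 2382 RPKM at Pec-fin and 2701 RPKM at Long-pec (-0.18). The 59 measured mitochondrial ribosomal proteins had a median of 0.03 with 0 past 2-fold, and the 69 translation factor genes one of -0.21, also with 0.

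Differences also varied with the gene length recovered from the values, over all genes. Genes of 500 to 1000 bases had a median difference of 0.05, genes of 2000 to 3000 bases one of -0.14 and genes over 5000 bases one of -0.00. The recovered lengths of RPL22, rps20 and RPS24 were 798, 1028 and 7138 bases. Some recovered lengths are not plausible, such as 41280 bases for RPS7 and 28560 for the small nucleolar RNA gene SNORD18 (ENSDARG00000082511). The length of RPS24 and the class over 5000 bases are therefore uncertain. The part of gene length in the ribosomal result was not tested.

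Genes of proliferation lay on the lower side. Of 74 measured cell cycle and DNA replication genes 71 were negative and 3 positive, where 42.9% of all genes were positive. Yet 0 of the 74 reached 2-fold, with a median of -0.44. CHAF1B, a histone chaperone of replication, had 11.2 RPKM at Pec-fin and 20.8 RPKM at Long-pec (-0.84). bub1, a kinase of the spindle checkpoint, had 11.9 and 21.7 RPKM (-0.81), and RRM1, the large subunit of ribonucleotide reductase, had 68.3 and 114 RPKM (-0.73). mki67, a proliferation marker, was among the 3 positive members, at 37.2 RPKM at Pec-fin and 33.7 RPKM at Long-pec (0.14).

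Proteasome genes lay mostly on the lower side. Of 40 measured proteasome genes 4 were positive, against 42.9% of all genes, and 36 negative (median -0.41). PSMD3, a subunit of the regulatory particle, passed 2-fold with 83.0 RPKM at Pec-fin and 169.8 RPKM at Long-pec (-1.02). Under median-of-ratios scaling it had -0.94, so that 0 proteasome genes passed. Of 52 measured genes of the spliceosome and RNA binding 16 were positive, against 42.9% of all genes, and 0 passed 2-fold (median -0.26). SF3B4 came nearest, with 49.5 and 98.2 RPKM (-0.97).

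In respiration, nuclear and mitochondrial genes overlapped in their differences. Of 73 measured nuclear genes of oxidative phosphorylation 51 were positive, against 42.9% of all genes (median 0.17). Of the 73, 4 were at least 2-fold higher, against 1.1% of all genes. cox4i1l, a cytochrome c oxidase subunit, had 9.07 RPKM at Pec-fin and 0.677 RPKM at Long-pec (2.59). It met the 1 RPKM limit only through Pec-fin. cox6b1, another subunit, had 47.9 and 9.35 RPKM (2.24), and ndufa4b had 30.5 and 12.1 RPKM (1.26). From Prim-25 to Protruding-mouth cox4i1l ran at 0.938, 0.677, 9.07 and 1.46 RPKM, and cox6b1 at 6.24, 9.35, 47.9 and 26.7 RPKM. ndufa4b was higher still at Protruding-mouth, at 40.5 RPKM. Of the 13 mitochondrially encoded genes 3 were positive, against 42.9% of all genes, and 10 negative (median -0.25). MT-CO1 had 4314 RPKM at Pec-fin and 7486 RPKM at Long-pec (-0.79), and MT-CO2, the most abundant gene of both libraries, had 14438 and 10742 RPKM (0.43).

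Of 14 measured hypoxia-related genes 2 passed 2-fold upward (median 0.23). NDRG1 (ENSDARG00000010420), a stress-responsive gene, had 7.82 RPKM at Pec-fin and 2.08 RPKM at Long-pec (1.52), and the vascular peptide ADM (ENSDARG00000069027) had 3.16 and 1.07 RPKM (1.01). Of 25 measured heat shock and stress genes 0 passed 2-fold (median -0.15). HSPB1, a small heat shock protein, had 50.4 RPKM at Pec-fin and 101 RPKM at Long-pec (-0.99).

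Hatching gland genes were lower at Pec-fin. Of 7 measured genes all 7 had a negative difference and 2 passed 2-fold, with a median of -0.64. Over all genes 42.9% had a positive difference. he1.2, a hatching enzyme that digests the egg envelope, had 52.1 RPKM at Pec-fin and 140.4 RPKM at Long-pec (-1.41). he1.1, its neighbor in the family, had 92.0 and 185 RPKM and a difference of -0.998 that just missed the limit. ctslb, a cathepsin of the gland, had 3.39 RPKM at Pec-fin and 12.3 RPKM at Long-pec (-1.60). The related cathepsin-like gene ctsll had 15.2 and 39.1 RPKM (-1.31). From Prim-25 to Protruding-mouth he1.1 ran at 180.2, 185, 92.0 and 5.17 RPKM, and he1.2 at 138, 140.4, 52.1 and 2.64 RPKM.

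In blood, the 8 measured globins of the list had negative differences, with a median of -0.45 and 3 past 2-fold. The share of positive differences over all genes was 42.9%. A further globin symbol, HBE1, was not in the list, was noticed after values were seen and stands for 4 measured gene IDs that differ in sign. ENSDARG00000069734 had 0.153 RPKM at Pec-fin and 7.89 RPKM at Long-pec (-2.95), and ENSDARG00000089087 had 0.0122 and 1.24 RPKM (-1.15). ENSDARG00000087390 had 509 RPKM at Pec-fin and 553 RPKM at Long-pec (-0.12), and ENSDARG00000045143 had 368 and 217 RPKM (0.76). The abundant alpha globin hbae3 had 6305 RPKM at Pec-fin and 6319 RPKM at Long-pec, a difference of -0.00 that turned to 0.08 under median-of-ratios scaling. The embryonic beta globin hbbe3 had 2259.9 RPKM at Pec-fin and 3769.7 RPKM at Long-pec (-0.74). hbaa2, an adult alpha globin, had 0.0407 and 3.32 RPKM (-2.05) and passed the 1 RPKM limit only through Long-pec. UROD, an enzyme of heme synthesis, had 13.1 RPKM at Pec-fin and 28.6 RPKM at Long-pec (-1.07, or -0.99 under median-of-ratios scaling).

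Of 26 measured leukocyte genes 1 passed 2-fold, where 2.1% of all genes did, and the list median was 0.04. It was cd74a of antigen presentation, with 0.157 RPKM at Pec-fin and 2.25 RPKM at Long-pec (-1.49). cd74a met the 1 RPKM limit only through Long-pec, and had 3.60 RPKM at 15-somite and 0.606 RPKM at Prim-25. Lysozyme, lyz, had 136 RPKM at Pec-fin and 69.4 RPKM at Long-pec (0.96), near 2-fold on the other side.

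Large negative differences were found among digestive and gonad genes, whose levels were low in absolute terms. Of 28 matched exocrine pancreas enzymes 17 passed the 1 RPKM limit, 13 of them only through Long-pec, so the 15 past 2-fold were partly set by the limit. Over all 28, the median difference was -1.29 and the range ran from -3.47 to 0.11. A further elastase symbol, CELA1, was not in the list and was noticed after values were seen; its gene ENSDARG00000017314 had 0.247 RPKM at Pec-fin and 15.2 RPKM at Long-pec, and its difference of -3.70 was the largest of the 14216 in size. The summed level was 10.8 RPKM at Pec-fin and 98.8 RPKM at Long-pec.

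The elastase gene ela3l had 0.0678 RPKM at Pec-fin and 10.9 RPKM at Long-pec (-3.47). These were 14 and 3 reads in the Pec-fin runs and 2011 reads at Long-pec. The trypsin gene prss1 had 1.38 RPKM at Pec-fin and 17.6 RPKM at Long-pec (-2.97), and the chymotrypsin gene ctrb.1 had 0.0239 and 7.27 RPKM (-3.01). Of 12 measured endocrine pancreas genes 0 passed 2-fold, near the share over all genes, and the median was 0.19. Insulin, ins, had 26.2 RPKM at Pec-fin and 14.7 RPKM at Long-pec (0.80).

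**Figure D5:**
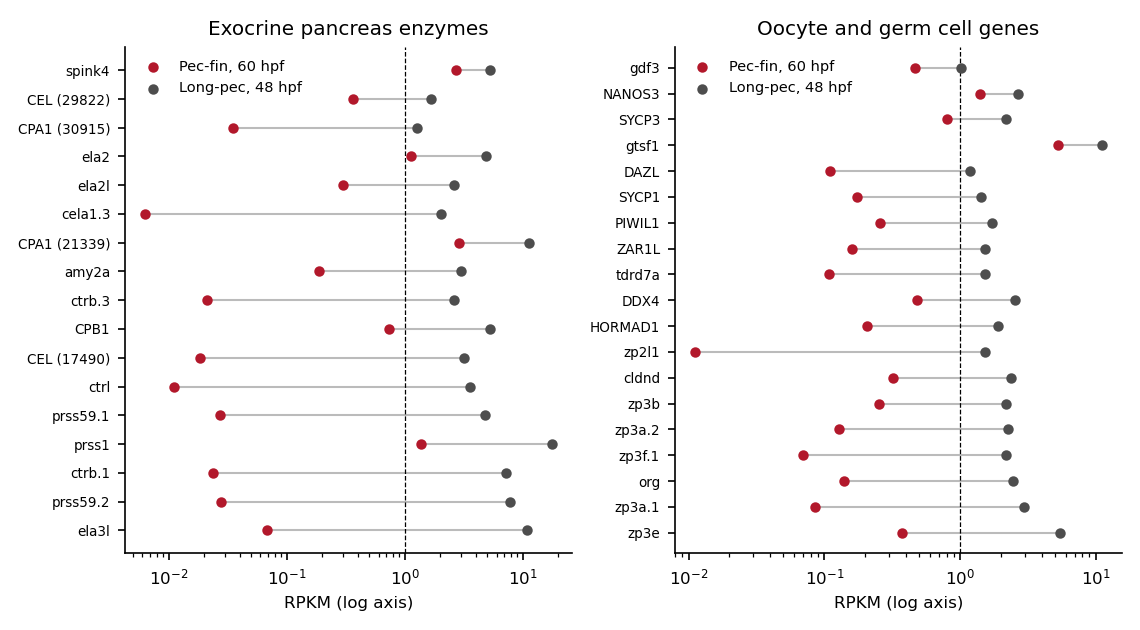
RPKM on a log axis at Pec-fin (red) and Long-pec (grey) for the 17 measured exocrine pancreas enzymes (left panel) and the 19 measured oocyte and germ cell genes (right panel), with a dashed line at 1 RPKM; gene ID digits follow repeated symbols. Most Pec-fin points lie left of the line, and since a gene needed 1 RPKM in either library to be shown, the Long-pec points had to lie right of it for those genes.

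Oocyte and germ cell genes had the same direction. Of 48 matched genes 19 passed the 1 RPKM limit, 17 of them only through Long-pec. Over all 48 the median was -0.46, with a range from -2.24 to 0.07, and the summed level was 14.9 RPKM at Pec-fin and 61.5 RPKM at Long-pec. The egg coat gene zp3e had 0.373 RPKM at Pec-fin and 5.49 RPKM at Long-pec (-2.24). DDX4, the germ cell helicase vasa, had 0.483 and 2.53 RPKM (-1.25). The oocyte growth factor genes GDF9 (0.0702 RPKM at Pec-fin and 0.0901 RPKM at Long-pec) and bmp15 (0.105 and 0.224 RPKM) were far under 1 RPKM in both.

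Gonadal somatic genes included the most extreme single value with a unique symbol. insl3, a peptide hormone made in the gonad, had 0.0865 RPKM at Pec-fin and 12.8 RPKM at Long-pec (-3.66). The Pec-fin runs held 19 and 3 of its reads and Long-pec 2266, with an exact 95% Poisson interval of 12.3 to 13.3 RPKM at Long-pec. gsdf, a growth factor of gonadal soma, had 0.0182 RPKM at Pec-fin and 2.98 RPKM at Long-pec (-1.97). Over the 24 matched members of this list the median was -0.02. amh (0.0765 and 0.246 RPKM) and the aromatase gene CYP19A1 (0.0652 and 0.0177 RPKM) were under 1 RPKM in both. The 12 measured testis and sperm genes had 0 past 2-fold and a median of -0.26. The 8 matched vitellogenins, the yolk precursors, summed to 0.362 RPKM at Pec-fin and 0.459 RPKM at Long-pec.

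Genes of the list of liver and plasma proteins were partly of this kind and partly abundant. Of 51 measured genes of liver and plasma proteins 6 were positive, against 42.9% of all genes, and 45 negative. Of the 51, 5 passed 2-fold downward (median -0.41). The 1 RPKM limit was met only through Long-pec by 8 of the 51, fabp10a included, and only through Pec-fin by 1. Over all 64 matched genes the median was -0.36. fabp10a, a liver fatty acid binding protein, had 0.487 RPKM at Pec-fin and 9.80 RPKM at Long-pec (-2.86). The plasma protein fetub had 162 RPKM at Pec-fin and 478 RPKM at Long-pec (-1.56), and the apolipoprotein gene apoeb had 639.8 and 1476 RPKM (-1.21). apoa2, another apolipoprotein, was nearly level, with 2977 RPKM at Pec-fin and 2953 RPKM at Long-pec (0.01). The list summed to 7935 RPKM at 15-somite, 15120 RPKM at Long-pec and 11839 RPKM at Pec-fin. At 15-somite fabp10a already had 24.4 RPKM, fetub 875 RPKM and apoeb 1479 RPKM. In which tissue these RNAs lay was not tested. Of 13 measured intestine genes 1 passed 2-fold upward, RBP2 (ENSDARG00000070038, 34.5 and 13.2 RPKM), and 1 downward, FABP6 (0.0347 and 3.53 RPKM). FABP6 met the 1 RPKM limit only through Long-pec, and over all genes 2.1% passed 2-fold either way.

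Seen across stages, the summed levels of the exocrine and oocyte lists were lower at Prim-25 and at Pec-fin than at Long-pec between them, and higher at 15-somite. The exocrine list summed to 125 RPKM at 15-somite, 27.0 at Prim-25, 98.8 at Long-pec, 10.8 at Pec-fin and 201 at Protruding-mouth. The oocyte list summed to 103, 26.5, 61.5, 14.9 and 14.0 RPKM at the same stages. The adult globin gene hbaa2 had 4.53 RPKM at 15-somite, 0.865 at Prim-25, 3.32 at Long-pec and 0.0407 at Pec-fin. What set these levels was not tested.

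Other genes with large positive differences had varied roles. tcnbb, a relative of the vitamin B12 carrier transcobalamin, had 339 RPKM at Pec-fin and 96.0 RPKM at Long-pec (1.81). lgals1l1, a galectin, had 132 and 39.9 RPKM (1.70), and fgfbp2b, a growth factor binding protein, had 12.6 and 3.56 RPKM (1.58). RHCG (ENSDARG00000003203), an ammonia transporter, was the single ionocyte gene of 17 past 2-fold, where 2.1% of all genes passed. RHCG had 4.38 RPKM at Pec-fin and 0.285 RPKM at Long-pec (2.07) and met the 1 RPKM limit only through Pec-fin. The small nucleolar RNA gene SNORD54, of 138 bases, had 56.0 RPKM at Pec-fin and 11.99 RPKM at Long-pec (2.13). Its Pec-fin runs gave 49.7 and 62.2 RPKM. The libraries were of poly(A) RNA, and whether these reads came from the small RNA or from a longer transcript was not tested.

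Other lower genes also had varied roles. PSAP, the precursor of saposins, had 166 RPKM at Pec-fin and 352 RPKM at Long-pec (-1.08, just under 2-fold with median-of-ratios scaling), and SPNS1, a lysosomal lipid transporter, had 33.1 and 71.7 RPKM (-1.10). tuba8l4, an alpha tubulin, had 234 RPKM at Pec-fin and 505 RPKM at Long-pec (-1.11). krt1-19d, a keratin, had 14.0 and 34.9 RPKM (-1.26). It was the single gene past 2-fold among 29 measured epidermal genes (median 0.07), where 2.1% of all genes passed.

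Several tissues showed no gene past 2-fold, which in lists of this size is near the 2.1% of all genes. This was so for 22 measured pigment cell genes (median 0.00), 18 vascular endothelium genes (median -0.04, turning to 0.01 under median-of-ratios scaling), 15 kidney genes (median 0.03), 15 glycolysis genes (median 0.21) and 10 genes of glia and myelin (median 0.08). The melanin synthesis gene DCT had 52.3 RPKM at Pec-fin and 53.6 RPKM at Long-pec, a difference of -0.03 that became 0.05 under the same scaling.

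At the limits, and among genes with a symbol, CALCRL and tnfrsf11a were the genes just inside 1 RPKM and GPR37 and zgc:162936 those just outside, all at 1.00 RPKM in their higher library after rounding. Just inside 2-fold on the higher side were atp5mf (579.5 RPKM at Pec-fin and 289 RPKM at Long-pec) and ABRA (2.88 and 0.936 RPKM), and just outside were crygm2d18 (2.97 and 0.991 RPKM) and NKTR (14.0 and 6.54 RPKM). On the lower side retsatl and SNORA74, both at -1.01, were just inside and he1.1 and HSPB1 just outside.

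The neighboring steps share a library with this one and are given side by side only. Long-pec against Prim-25 had 161 genes (1.13% of 14221) at least 2-fold higher and 80 (0.563%) lower. Pec-fin against Long-pec had 156 and 143. Protruding-mouth against Pec-fin had 1427 (8.98% of 15896) and 417 (2.62%).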

How the data were processed

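Poly(A) RNA libraries of 9 stages, 1 per stage, were sequenced on SOLiD as single-fragment libraries, per the labels' protocols. The authors deposited 1 table of RPKM values per gene, on genome build Zv9 per the submitters' processing notes. No source used here names the aligner, the annotation release, the use of strand or the treatment of reads that match several genes. Genes at 1 RPKM or more in either library were kept, and differences used log2(RPKM + 1). RPKM depends on library composition, so a few abundant genes can shift all others.

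Mapped reads, gene lengths and reads per gene were recovered from the RPKM values as whole-number ratios, to a relative tolerance of 1e-09. A recovered length can exceed the true one, which also raises the recovered reads and narrows the intervals. Of the 14216 genes, 11777 (82.8%) gave whole reads in both Pec-fin runs. That the Pec-fin column is a mean of 2 runs rests on its total. The recovery and the counting of differences were tested on simulated data. The simulated column was built from 2 runs, so that test does not bear on whether the Pec-fin column holds 2. Exact Poisson intervals (95%) cover counting error only.

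Symbols came from a table of gene IDs that matched 19580 of 29291 IDs and 11673 of the 14216. List members were matched by symbol, also without a final a or b. The comparison and the 52 lists were chosen with earlier results of these data known. Named were the 20 largest differences in each direction with a unique symbol and at least 10 RPKM, up to 6 members per list, the 10 most abundant genes, genes at the limits and defining markers. Other list members that are named were chosen after their values were seen. Some retinal genes are not reported here. Python 3.11.15, numpy 2.4.6, pandas 2.3.3, scipy 1.17.1 and matplotlib 3.10.9 were used.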

Additional observations from a re-analysis of the deposited data

How the results depend on the processing

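With a pseudocount of 0.1 in place of 1, 390 genes were at least 2-fold higher at Pec-fin and 290 lower, against 156 and 143 as reported, because low genes are then shrunk less. A filter of 5 RPKM tested 7618 genes and gave 60 lower genes (121 higher). The second Pec-fin run alone, over the 11777 genes of whole reads, gave 98 higher genes (123 lower), where the mean of both runs gave 107 and 109 over those genes. The counts stayed within 1.5 times those reported under median-of-ratios scaling (189 and 120) and scaling without the 100 most abundant genes. They also did with the first run alone (114 and 105). With no filter they could not change, since a gene under 1 RPKM in both libraries cannot reach a difference of 1. Leaving out the mitochondrially encoded genes, the ribosomal protein genes or the digestive, liver, yolk and gonad lists (155 and 106) could only subtract members. RPKM was not rescaled, so these omissions do not test library composition. Median-of-ratios scaling shifted log2 RPKM by 0.08. The shift raised every Pec-fin value, so the 156 of 156 higher genes it kept were fixed in advance. Of the 143 lower genes it kept 120. No named gene past 2-fold changed direction, which only the single-run settings could have brought about. Under median-of-ratios scaling retsatl, SNORA74, PSMD3, UROD and PSAP came under 2-fold, as did SNORA74 and PSMD3 under scaling without the 100 most abundant genes, retsatl and SNORA74 with the first run alone, and UCMA, myhz2, NR2E3 and atp5mf with the second. With no filter the list medians of crystallins (0.67) and oocyte genes (-0.46) came under 2-fold. The exocrine and oocyte medians rest on members that mostly passed the filter only through Long-pec, and neither was evaluated without the digestive and gonad lists, nor the oocyte one with the 5 RPKM filter. Matching list members by exact symbol only, an alternative chosen after seeing the data, took no list median from past 2-fold to under it. It moved the muscle median to 1.07 and that of lens fiber genes to 0.66, and turned the sign of 5 list medians near 0. No paired analysis was possible because each stage has 1 library, and replicates could not be left out for the same reason.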
